A study of Scyliorhinus canicula with 3 samples.

Results

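Nuclear receptor genes were described here across the nuclei of the juvenile retina of the small-spotted catshark (*Scyliorhinus canicula*), above all in rod photoreceptors (rods) and photoreceptor (PR) precursors. Members were all features whose symbol carries a nuclear receptor name (NR families, retinoic acid, retinoid X, thyroid hormone, vitamin D, estrogen, ROR and PPAR receptors), with at least 10 UMIs (unique molecular identifiers, which count RNA molecules) in the nuclei kept. The gene *nr2e3* was left out by this rule, and it also served as a marker of the precursors. In all, 19 of the 29017 annotated features were members, and none of the 19 symbols found fell under the limit of 10 UMIs. No gene of a retinoid X, thyroid hormone or vitamin D receptor was among them. A further 16725 features carry only a number in place of a symbol and were not searched, so receptors annotated that way are not covered. The study sequenced nuclear RNA from the retinas of 3 female juveniles of 11.0, 10.5 and 11.1 cm total length, 1 library each, giving 3 libraries of untreated tissue under 1 condition. All comparisons are therefore between classes of nuclei within the same 3 animals.

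Nuclear receptors are transcription factors, many of which are switched by a small lipophilic ligand such as a steroid, retinoic acid, thyroid hormone or a fatty acid, while others, called orphan receptors, have no established hormone. They bind DNA alone, in pairs of the same receptor or with a partner, and recruit coactivators or corepressors. In the mouse retina, Rorb is needed for rods to form, and retinoid and thyroid hormone receptors take part in the choice between photoreceptor fates. Nr1d1, a repressor of the circadian clock, was shown to act beside Nr2e3 on rod genes of the mouse.

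After the filters, 17738 nuclei formed 22 clusters, of which 19 took a class name from marker genes. There were 3982 rod-like nuclei in 3 clusters, 3795 PR precursor-like nuclei in 2 clusters and 386 nuclei resembling retinal progenitor cells (RPC-like) in 1 cluster. The RPC-like nuclei numbered 153, 50 and 183 in libraries 1, 2 and 3. The other named classes were horizontal cell (HC)-, bipolar cell (BC)-, GABAergic, cholinergic and glycinergic amacrine cell (AC)-, retinal ganglion cell (RGC)- and Müller glia (MG)-like nuclei, with 269 to 2330 nuclei each. The 10 rod markers found in the annotation summed to 32086 to 38184 counts per 1e+06 UMIs of the class (CPM) in rod-like nuclei over the libraries, against 8968 to 10909 CPM in PR precursor-like nuclei. The 7 precursor markers summed to 622 to 996 CPM in rod-like nuclei, against 3560 to 7438 CPM in PR precursor-like nuclei. In PR precursor-like nuclei, the largest part of this sum was LOC119966048, at 2644, 4375 and 1721 CPM in libraries 1, 2 and 3. *foxo1a* followed with 1518, 1234 and 682 CPM. The study named a single cluster of precursors, by mostly low rod markers together with *nr2e3* and *neurod1*. Between the classes rebuilt here, *nr2e3* and *neurod1* differed less than the sum of the 7 markers. In libraries 1, 2 and 3, *nr2e3* was at 121, 210 and 136 CPM in rod-like nuclei, against 312, 715 and 345 CPM in PR precursor-like nuclei. *neurod1* was at 393, 214 and 280 CPM, against 636, 260 and 289 CPM. The 12 progenitor markers reached 1949 to 2154 CPM in RPC-like nuclei, 237 to 315 CPM in PR precursor-like nuclei and 122 to 175 CPM in rod-like nuclei. None of these markers was at 0 in its own class. The same lists gave the clusters their names, so a high sum in the own class follows from the naming. The 2 cone markers found, of 11 listed, summed to 1.30 to 5.24 CPM in rod-like nuclei, against 14.7 to 48.9 CPM in PR precursor-like nuclei. RPC-like nuclei had a similar sum of 14.1 to 28.1 CPM, so it does not set the precursors apart. Median depth was 1947 UMIs in rod-like nuclei, 1429 in PR precursor-like nuclei and 2881 in RPC-like nuclei. PR precursor-like nuclei made up 32.4%, 25.8% and 12.8% of libraries 1, 2 and 3, and rod-like nuclei 21.8%, 22.6% and 22.8%. A cluster of 1313 nuclei, of which 89.6% came from library 3, was nearest to the rod markers but took no name and was set aside before these counts.

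The 19 members spread over 12 chromosomes of build sScyCan1.1. Their totals ran from 58 UMIs for *nr0b1* to 46130 UMIs for *esrrga*, with *nr3c2*, *rorb* and *raraa* following at 40485, 39855 and 39076 UMIs. Since reads over introns were counted, long genes can collect more UMIs than short ones, and levels are compared below between classes for 1 gene at a time. The genes of the 4 largest totals span 295.7 kb (*esrrga*), 536 kb (*nr3c2*), 259 kb (*rorb*) and 657 kb (*raraa*).

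Rod-like nuclei had more RNA of *esrrga*, *raraa*, *nr3c1*, *esr1* and *nr2c2*, and less of *pparg*, *nr2f1a*, *nr2e1* and *nr4a2a*, than PR precursor-like nuclei. Of the 19 members, 16 had enough counts to be tested by edgeR, 5 were higher and 4 lower at an adjusted p under 0.05, 7 did not pass and *esr2a*, *nr0b1* and *nr1h4* were too low for the test. Over all 14060 features tested, 15% were called higher and 15.1% lower. The median log2 fold change was -0.21 over the 16 members and -0.03 over all features. Fold changes use TMM factors, which scale each sum by the bulk of its features in place of its plain total. Without these factors, 29.0% of all calls were higher in place of 49.9%, the median of all features fell by 0.24, and the members called were 3 higher and 6 lower.

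**Figure D1:**
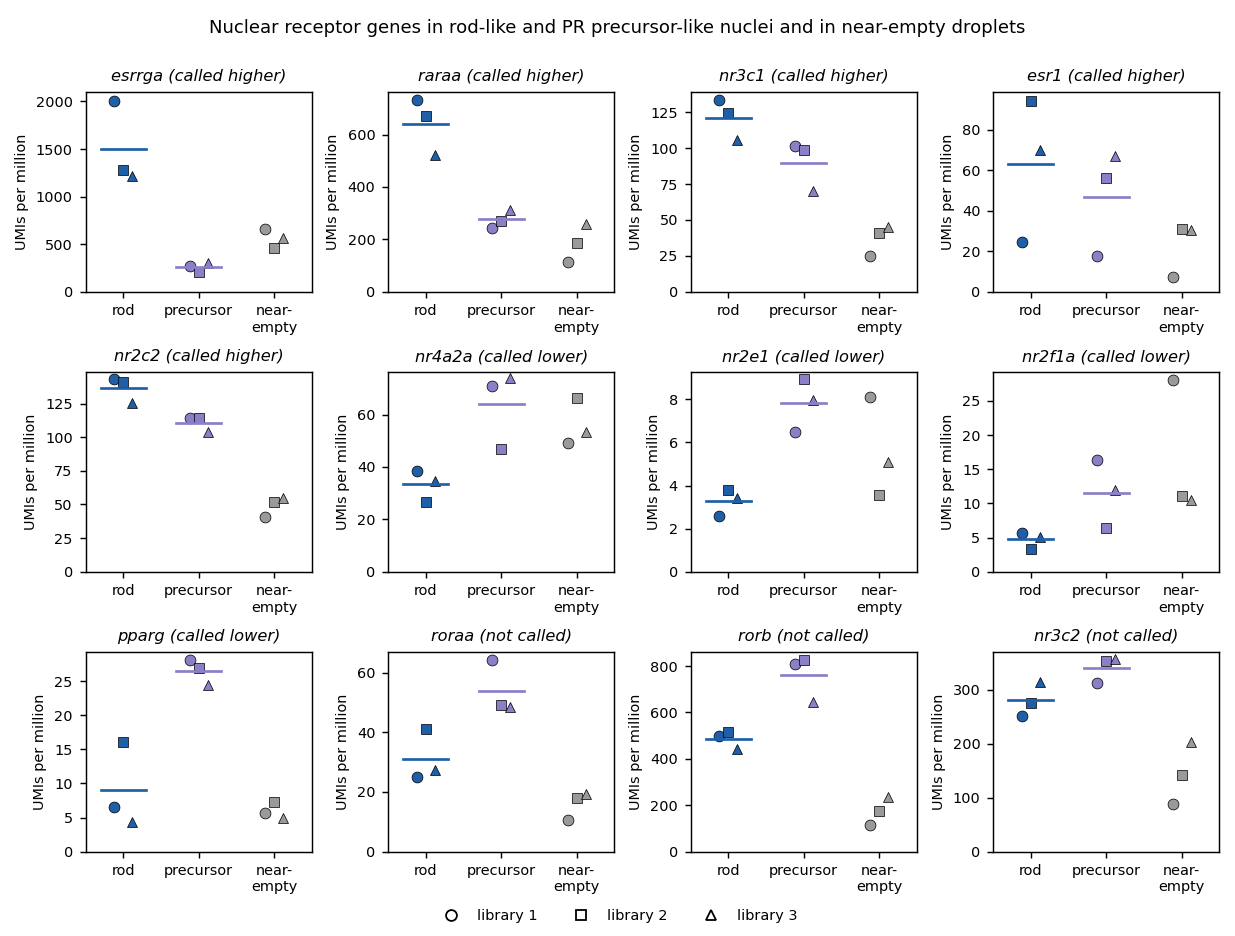
Level of 12 nuclear receptor genes (y axis, CPM) in rod-like nuclei, PR precursor-like nuclei and near-empty droplets of each library, with each point 1 library and the line the mean of 3 libraries. The rod-like points of *esrrga* (1218 to 2009.8) lie far above the PR precursor-like points (211 to 299), which themselves lie under the near-empty droplets.

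The largest difference belonged to *esrrga* (gene ID 119973514, chromosome 1, 255465665 to 255761402), which encodes estrogen-related receptor gamma, an orphan receptor known in mammals for driving genes of mitochondrial energy metabolism. Its level was 2009.8, 1274 and 1218 CPM in rod-like nuclei of libraries 1, 2 and 3, against 271, 211 and 299 CPM in PR precursor-like nuclei. Every rod-like value was above every precursor value, and the log2 fold change was 2.74 ± 0.20 (SE, edgeR adjusted p = 2.65e-05), a 6.70-fold difference. The call held in all 16 alternatives run, with log2 fold changes of 1.98 to 2.99. Droplets with few UMIs, which were assumed and not shown to carry mostly free RNA, held 657, 462 and 569 CPM of *esrrga*. Precursor nuclei lay below these droplets in all 3 libraries as a share of UMIs, and how much of their level is free RNA was not tested. Rod-like and GABAergic AC-like nuclei were the 2 of 10 classes above the droplets in every library.

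The retinoic acid receptor alpha gene *raraa* (gene ID 119954085, chromosome 19, 13717253 to 14373771) had the second largest difference among the members higher in rods. It measured 732, 671 and 521 CPM in rod-like nuclei, against 244, 271 and 313 CPM in PR precursor-like nuclei. The values did not overlap, and the log2 fold change was 1.45 ± 0.19 (adjusted p = 0.000332), which also held in all 16 alternatives. Near-empty droplets held 113, 186 and 257 CPM, below both classes in every library. Precursors had the lowest mean *raraa* level of the 10 classes. The highest means were in cholinergic AC-like (665 ± 116 CPM) and RGC-like nuclei (655 ± 151 CPM), followed by rod-like nuclei (641 ± 109 CPM). The libraries of these classes overlapped.

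The glucocorticoid receptor gene *nr3c1* (gene ID 119965285, chromosome 4, 195531371 to 195668779) binds cortisol-like hormones in other vertebrates. Its level was 134, 125 and 106 CPM in rod-like nuclei and 102, 98.5 and 70.0 CPM in PR precursor-like nuclei. The classes did not overlap, with a log2 fold change of 0.68 ± 0.15 (adjusted p = 0.00745). Near-empty droplets were at 25.2, 41.2 and 45.4 CPM. The testicular receptor 4 gene *nr2c2* (gene ID 119973208, chromosome 11), an orphan receptor, was at 143, 141 and 125 CPM in rod-like nuclei and 114, 114 and 104 CPM in PR precursor-like nuclei. This smaller difference (log2 fold change 0.54 ± 0.14, adjusted p = 0.0174) was not called without library 3 (adjusted p = 0.0534) or without TMM factors (adjusted p = 0.1196).

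The estrogen receptor gene *esr1* (gene ID 119970670, chromosome 1) was higher in rod-like nuclei within every library, although the animals differed more than the classes. Its level was 24.8, 94.4 and 70.0 CPM in rod-like nuclei, against 17.4, 56.3 and 67.1 CPM in PR precursor-like nuclei. Library 1 was the lowest of the 3 libraries in all 10 classes and in near-empty droplets (7.38 CPM, against 31.0 and 30.3 CPM in libraries 2 and 3). The within-library log2 fold change was 0.67 ± 0.17 (adjusted p = 0.0171), and it was not called without library 2 (adjusted p = 0.0835) or without TMM factors (adjusted p = 0.0932). The call held in 10 of 16 alternatives, and was also lost with DESeq2 (adjusted p = 0.0582) and with no replicate block (adjusted p = 0.519).

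Among the genes lower in rods, *pparg* (gene ID 119973966, chromosome 11, 29908916 to 30071854), a fatty acid receptor best known for fat cell formation, changed most. It measured 6.52, 16.1 and 4.33 CPM in rod-like nuclei, against 28.1, 26.9 and 24.5 CPM in PR precursor-like nuclei. No library overlapped, and the log2 fold change was -1.50 ± 0.32 (adjusted p = 0.00614), based on 82 UMIs in rod-like and 193 UMIs in precursor nuclei. Near-empty droplets had 5.61, 7.21 and 4.96 CPM, close to the rod-like levels of libraries 1 and 3.

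The orphan receptor *nr4a2a* (gene ID 119961949, chromosome 2), whose mouse counterpart Nurr1 is required for dopamine neurons and some amacrine cells, was at 38.6, 26.7 and 34.6 CPM in rod-like nuclei, against 71.1, 46.7 and 73.9 CPM in PR precursor-like nuclei. The log2 fold change was -0.70 ± 0.16 (adjusted p = 0.00777), and the adjusted p was 0.0732 without library 3. Near-empty droplets held 49.0, 66.5 and 53.2 CPM, above rod-like nuclei in all 3 libraries and above precursors in library 2. As a share of UMIs, the rod-like level of this gene was thus below that of the droplets, and how much of it is free RNA was not tested.

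The remaining calls were made on few molecules. *nr2e1* (gene ID 119967115, chromosome 6), the tailless receptor of neural progenitors, was at 2.61, 3.81 and 3.42 CPM in rod-like nuclei (34 UMIs), against 6.51, 8.96 and 7.96 CPM in PR precursor-like nuclei (53 UMIs). Its log2 fold change of -1.01 ± 0.31 (adjusted p = 0.0354) lost the call when any 1 of the libraries was left out (adjusted p = 0.108, 0.124 and 0.115 without libraries 1, 2 and 3). *nr2f1a* (gene ID 119970513, chromosome 8), a COUP transcription factor that takes part in patterning the forebrain of mammals, was at 5.73, 3.38 and 5.01 CPM in rod-like nuclei and 16.4, 6.40 and 11.9 CPM in PR precursor-like nuclei. The log2 fold change was -1.07 ± 0.29 (adjusted p = 0.0192), and the adjusted p was 0.130 without library 1 and 0.0807 without library 3. DESeq2 called neither gene (adjusted p = 0.237 for *nr2e1* and 0.144 for *nr2f1a*). Near-empty droplets held 8.13, 3.54 and 5.10 CPM of *nr2e1*, above rod-like nuclei in libraries 1 and 3, and 28.0, 11.1 and 10.6 CPM of *nr2f1a*, above rod-like nuclei in every library. They were also above PR precursor-like nuclei in library 1 for *nr2e1* and in libraries 1 and 2 for *nr2f1a*.

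Several receptors did not pass the test. The rod fate gene *rorb* was at 499, 517 and 444 CPM in rod-like nuclei, against 809, 826 and 647 CPM in PR precursor-like nuclei. These raw levels did not overlap, but the fold change after TMM scaling was smaller (log2 -0.40 ± 0.16, adjusted p = 0.0841). Its relative *roraa* measured 25.0, 41.0 and 27.4 CPM in rod-like nuclei and 64.3, 49.3 and 48.3 CPM in PR precursor-like nuclei, with a log2 fold change of -0.60 ± 0.22 (adjusted p = 0.0649). It was called in 5 of 16 alternatives and *rorb* in 1 of 16, both always with a negative sign. The mineralocorticoid receptor gene *nr3c2* (log2 fold change -0.05 ± 0.15), the clock gene *nr1d1* (0.03 ± 0.15) and *pparab* (0.21 ± 0.18), a receptor tied to fatty acid oxidation, had adjusted p-values of 0.431 to 0.894 and a turned sign in 4, 3 and 1 of 16 alternatives. The low-count genes *nr4a3* and *nr5a2* had log2 fold changes of -0.76 ± 0.35 and -0.37 ± 0.35.

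RPC-like, PR precursor-like and rod-like nuclei were then compared in this order, which was assumed and not tested. The study proposes that its PR clusters could be states of differentiation, and leaves this to further research. PR precursor-like nuclei had much less *nr2e1* and *nr2f1a* than RPC-like nuclei, and more *nr1d1*. Of the 14 members tested, 1 was higher and 2 were lower, against 6% higher and 8.81% lower among all 11426 features. *nr2e1* was at 6.51, 8.96 and 7.96 CPM in PR precursor-like nuclei, against 145, 63.3 and 81.1 CPM in RPC-like nuclei. All precursor values lay below all progenitor values (log2 fold change -3.66 ± 0.35, adjusted p = 6.82e-05), a 12.6-fold lower level. *nr2f1a* had 16.4, 6.40 and 11.9 CPM in PR precursor-like nuclei and 106, 28.2 and 45.9 CPM in RPC-like nuclei (log2 fold change -2.27 ± 0.32, adjusted p = 0.000813). Both calls held in all 15 alternatives that had an RPC-like class. *nr1d1* was at 68.7, 85.1 and 67.7 CPM in PR precursor-like nuclei, against 17.3, 42.2 and 50.5 CPM in RPC-like nuclei (log2 fold change 1.19 ± 0.33, adjusted p = 0.0306). This call was lost without library 1 (adjusted p = 0.332) and without library 2 (adjusted p = 0.0948), and near-empty droplets held 113, 90.5 and 71.9 CPM of *nr1d1*, above both classes in every library. In library 2, the 50 RPC-like nuclei held 9 UMIs of *nr2e1*, 4 of *nr2f1a* and 6 of *nr1d1*. The RPC-like levels of that library thus rest on few molecules.

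In the assumed order, mean *nr2e1* was 96.5 ± 43.0, 7.81 ± 1.23 and 3.28 ± 0.613 CPM (SD, n = 3 libraries) in RPC-like, PR precursor-like and rod-like nuclei, and *nr2f1a* was 60.03 ± 40.8, 11.6 ± 5.01 and 4.71 ± 1.20 CPM. *rorb* showed 1205 ± 149.8, 761 ± 99.01 and 487 ± 37.8 CPM with no overlap between neighbouring classes, yet neither contrast was called (adjusted p = 0.109 for precursors over progenitors). *esrrga* was at 215 ± 65.0 CPM in RPC-like, 260.4 ± 44.8 CPM in PR precursor-like and 1501 ± 442 CPM in rod-like nuclei. Its contrast of precursors over progenitors was not called by edgeR (adjusted p = 0.311), but was called in 2 of 15 alternatives. *raraa* was at 355 ± 59.7, 276 ± 34.8 and 641 ± 109 CPM, and of its contrasts only that of rods over precursors was called. *pparg* had the highest mean of these classes in PR precursor-like nuclei, with 14.7 ± 7.32, 26.5 ± 1.86 and 8.98 ± 6.25 CPM, and only the lower level in rods was called. Its RPC-like level in library 2 rests on 1 UMI.

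**Figure D2:**
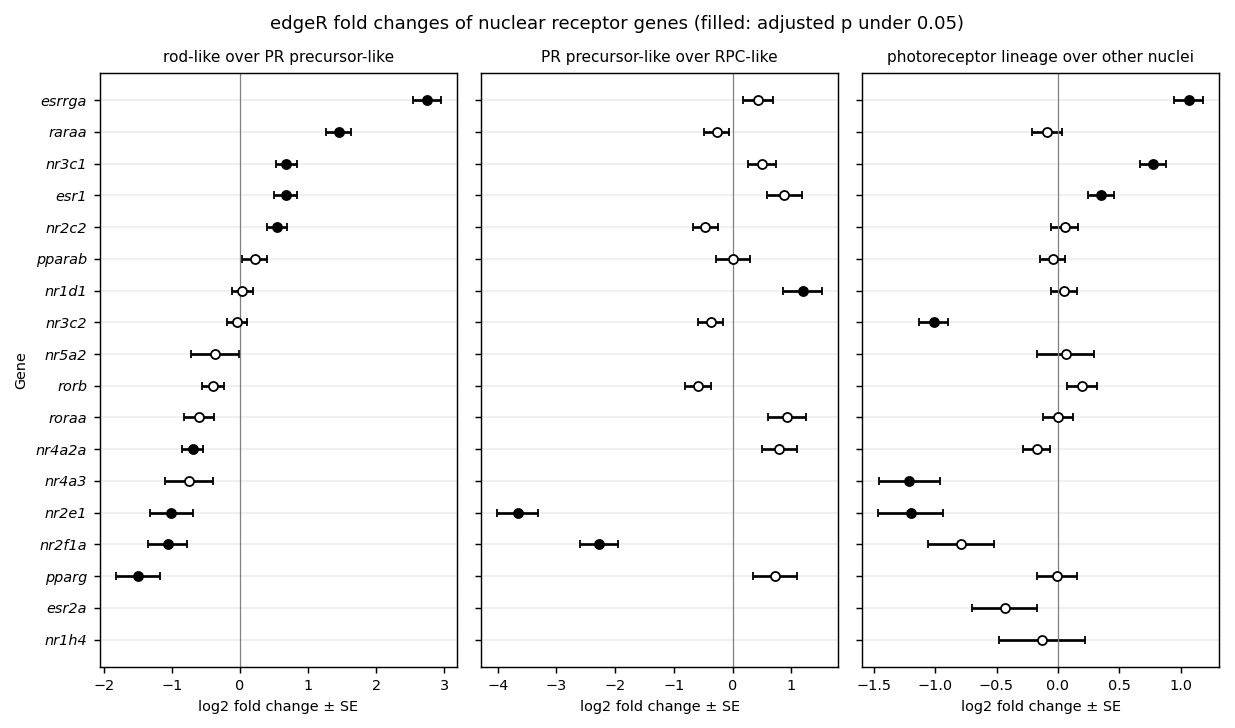
Log2 fold change with a standard error derived from the F statistic (x axis) of each tested member (y axis) in 3 edgeR comparisons of sums over 3 libraries, with filled points called at an adjusted p under 0.05. *esrrga* (2.74) and *raraa* (1.45) lead the rod-like side of the first panel, and *nr2e1* (-3.66) and *nr2f1a* (-2.27) lie far on the RPC-like side of the second.

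Rod-like and PR precursor-like nuclei pooled as 1 photoreceptor lineage differed from all other nuclei in 6 of the 18 members tested, 3 higher and 3 lower, against 16.4% higher and 19.7% lower among 18148 features. Here and in the class comparisons below, the other nuclei include the unnamed clusters. Among these is the cluster of 693 nuclei nearest to the precursors, with a mean *esrrga* level of 868 CPM. *esrrga* averaged 982 ± 146 CPM in the lineage and 484 ± 35.9 CPM in the other nuclei (log2 fold change 1.07 ± 0.12, adjusted p = 0.000535). *nr3c1* averaged 109 ± 12.02 CPM in the lineage and 66.1 ± 6.20 CPM elsewhere (0.78 ± 0.11, adjusted p = 0.00149). *nr3c2* was lower, with 304 ± 22.0 CPM in the lineage and 637 ± 25.0 CPM in the other nuclei (-1.01 ± 0.12, adjusted p = 0.000674). These 3 calls held in all 16 alternatives. *nr4a3*, an activity-induced orphan receptor, was at 4.06 ± 2.08 against 9.37 ± 2.14 CPM (-1.21 ± 0.25, adjusted p = 0.00834) and *nr2e1* at 5.04 ± 0.708 against 12.02 ± 3.98 CPM (-1.20 ± 0.26, adjusted p = 0.0114). Both calls were lost by edgeR with no replicate block (adjusted p = 0.153 and 0.0596). Near-empty droplets held 8.41, 7.08 and 4.89 CPM of *nr4a3*, above rod-like and PR precursor-like nuclei in every library. *esr1* was slightly higher (0.35 ± 0.10, adjusted p = 0.0360), a call lost without library 1, 2 or 3 (adjusted p = 0.0595, 0.157 and 0.198).

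Each class of the lineage was also set against all other nuclei, which then include the other class, so these values are not independent of the comparison of rods with precursors. In this way, *esrrga* was higher in rod-like nuclei (log2 fold change 1.89 ± 0.20, adjusted p = 0.000449) and lower in PR precursor-like nuclei (-1.37 ± 0.16, adjusted p = 0.000128). *raraa* was likewise higher in rod-like nuclei (0.54 ± 0.15, adjusted p = 0.0297, and 0.223 without library 2 or 0.134 without TMM factors) and lower in precursors (-1.03 ± 0.16, adjusted p = 0.000818). For the pooled lineage, *raraa* was not called by edgeR (log2 fold change -0.09, adjusted p = 0.590). *pparg* was lower in rod-like nuclei (-0.94 ± 0.28, adjusted p = 0.0352, and 0.151 without library 3) and higher in precursors (0.86 ± 0.19, adjusted p = 0.00663, and 0.0551 without library 3 or 0.262 without the precursor cluster with more of library 1). *nr3c2* was lower in both classes, at 280.0 ± 31.2 CPM in rod-like nuclei and 340.4 ± 24.6 CPM in precursors, which were the lowest means of the 10 classes. Rod-like nuclei also had the highest mean of *nr3c1*, with no overlap with PR precursor-like nuclei, the next class in order, and the highest mean of *esr1*, which overlapped with the next class.

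Each of the 10 classes was then set against all other nuclei of its library. Over the 179 tested pairs of member and class, 21 were called higher and 25 lower, against 9.08% and 9.7% of all pairs of feature and class. Plain totals in place of TMM moved the split of all calls, and the share that was higher became 27.7% in place of 43.8% for rod-like nuclei, 36.5% in place of 58.2% for BC-like, 41.4% in place of 52.4% for RGC-like and 55.5% in place of 42.6% for RPC-like nuclei. In cholinergic AC-like nuclei DESeq2 gave 52.7% in place of 40.8%.

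By class, rod-like nuclei had 4 members called higher and 6 lower, against 16.2% and 20.8% of all features tested there. PR precursor-like nuclei had 2 higher and 3 lower, against 12.6% and 14.7%. BC-like nuclei had 3 higher and 1 lower (6.36% and 4.56% of features), GABAergic AC-like nuclei 3 and 2 (11% and 11.9%), and cholinergic AC-like nuclei 2 and 4 (5.47% and 7.96%). Glycinergic AC-like nuclei had 0 higher and 2 lower (6.82% and 7.63%), RGC-like nuclei 2 and 3 (14.6% and 13.3%), MG-like nuclei 2 and 0 (8.17% and 5.55%), and RPC-like nuclei 3 and 4 (7.69% and 10.3%). For the 0 lower in MG-like nuclei, edgeR had 2 members at an unadjusted p under 0.05 and DESeq2 called 2.

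**Figure D3:**
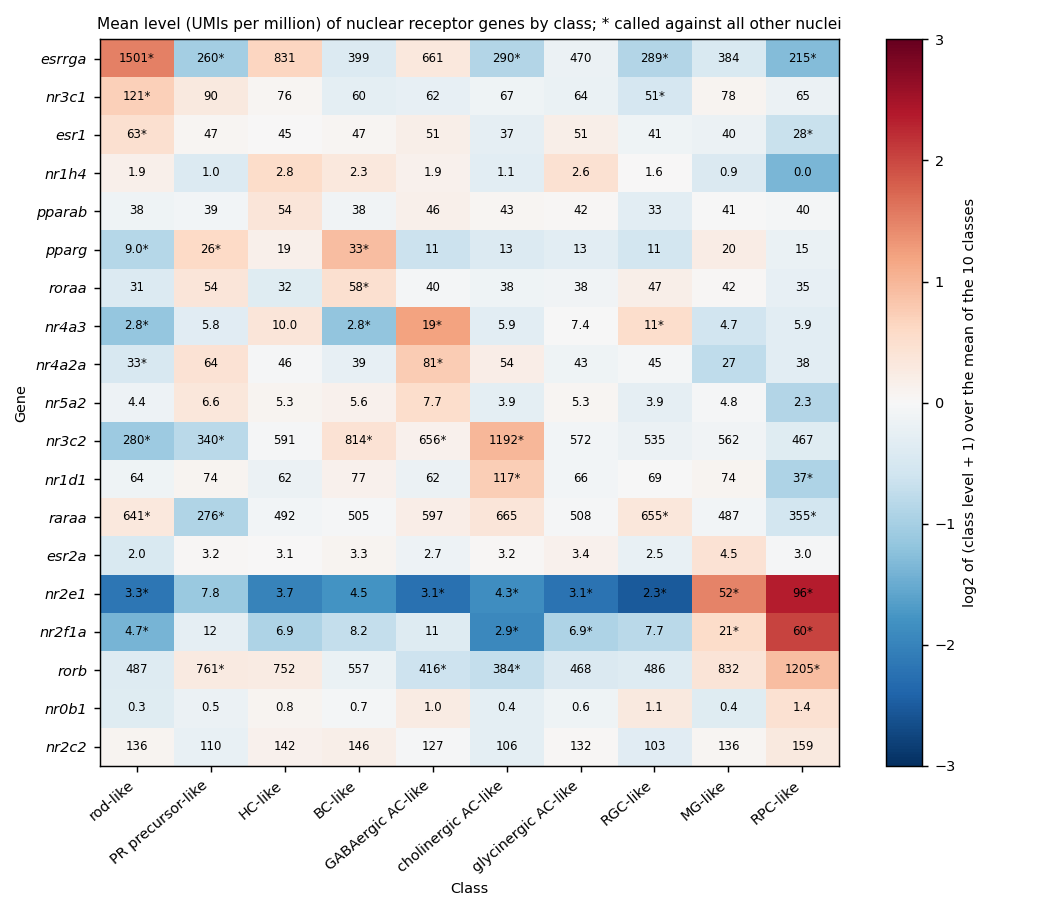
Mean level in CPM over 3 libraries (numbers) of each member (rows) in the 10 classes (columns), coloured by log2 of the level plus 1 over the mean of the classes, with an asterisk where the class was called against all other nuclei. *nr2e1* ranges from 2.33 in RGC-like to 96.5 in RPC-like nuclei, while *nr2c2* stays between 103 and 159.

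Among the 10 named classes, *nr2e1*, *nr2f1a* and *rorb* each had their highest mean in RPC-like nuclei and their second highest in MG-like nuclei. For *nr2f1a*, the pooled unnamed nuclei (63.8, 12.9 and 19.1 CPM) lay above MG-like nuclei (32.9, 17.9 and 12.3 CPM) in libraries 1 and 3, and below them in library 2. An unnamed cluster of 964 nuclei was nearest to pigment epithelium. More progenitor than pigment epithelium markers were high in it (8 against 3), so it took no name. Its own *nr2f1a* level is not given here. *nr2e1* was 96.5 ± 43.0 CPM in RPC-like and 52.4 ± 22.0 CPM in MG-like nuclei, with 2.33 to 7.81 CPM in the other 8 classes. Against all other nuclei its log2 fold change was 3.65 ± 0.29 in RPC-like (adjusted p = 1.64e-09) and 2.85 ± 0.19 in MG-like nuclei (adjusted p = 9.25e-06), and both calls held in every alternative. *nr2f1a* was called higher in RPC-like nuclei (2.37 ± 0.28, adjusted p = 1.01e-06) and in MG-like nuclei (0.96 ± 0.26, adjusted p = 0.0314), the second lost without library 2 (adjusted p = 0.339) and with no replicate block (adjusted p = 0.713). *rorb* at 1205 ± 149.8 CPM in RPC-like nuclei stood above MG-like nuclei (832 ± 219 CPM) in all libraries and was called higher in RPC-like nuclei (0.97 ± 0.22, adjusted p = 0.00203, and 0.0709 without library 2), but not in MG-like nuclei. By edgeR, *rorb* was also called higher in PR precursor-like nuclei (adjusted p = 0.0303), a call lost without library 1, 2 or 3 (adjusted p = 0.0896, 0.180 and 0.0718).

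Among the interneurons, cholinergic AC-like nuclei had the highest *nr3c2*, at 1192 ± 66.9 CPM against 524 ± 48.8 CPM in all other nuclei (log2 fold change 1.26 ± 0.16, adjusted p = 1.35e-06). BC-like nuclei came second with 814 ± 63.6 CPM, and the libraries of these 2 classes did not overlap. Cholinergic AC-like nuclei also led *nr1d1*, with 117 ± 31.4 CPM, compared with 66.6 ± 7.10 CPM outside the class (0.85 ± 0.15, adjusted p = 0.00021). Beside the near-empty droplets this level was lower in library 1 (88.3 CPM against 113 CPM), and no class exceeded the droplets in all 3 libraries for *nr1d1*. GABAergic AC-like nuclei had the highest mean of both NR4A members, which respond quickly to activity and stress in many cells. Their ranges overlapped with the next class for both genes, and in library 3 *nr4a2a* was at 72.0 CPM in GABAergic AC-like nuclei and 73.9 CPM in PR precursor-like nuclei. *nr4a3* was at 18.8 ± 6.25 CPM in GABAergic AC-like nuclei and 5.56 ± 1.18 CPM outside them (1.74 ± 0.24, adjusted p = 0.00216), and *nr4a2a* at 80.8 ± 25.7 against 43.6 ± 4.88 CPM (0.91 ± 0.14, adjusted p = 0.00383). In library 2 the GABAergic level of *nr4a2a* (60.8 CPM) was under that of the droplets (66.5 CPM).

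BC-like nuclei had the highest *pparg*, at 33.4 ± 4.29 CPM against 14.1 ± 3.88 CPM in all other nuclei (1.46 ± 0.18, adjusted p = 0.00435), and no library overlapped with PR precursor-like nuclei, the second class. They also had the highest mean of *roraa*, 58.1 ± 6.18 CPM against 40.2 ± 4.01 CPM elsewhere (0.69 ± 0.12, adjusted p = 0.0167, and 0.179 without library 2). PR precursor-like nuclei followed with 54.0 ± 8.95 CPM, which overlapped. HC-like nuclei held the second highest mean *esrrga* level, 831 ± 331 CPM, which in library 3 (552 CPM) was below the near-empty droplets, and no member was called there by edgeR. At an unadjusted p under 0.05, 0 members were higher and 1 lower in HC-like nuclei, and DESeq2 called 0 members. With 269 nuclei, HC-like nuclei had the fewest calls over all features too, 1.77% higher and 0.173% lower. No member was called higher in glycinergic AC-like nuclei by either tool, with 0 at an unadjusted p under 0.05.

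RGC-like nuclei, the output neurons of the retina, were low in *esrrga*, at 289 ± 22.5 CPM against 655 ± 98.3 CPM in all other nuclei (-1.08 ± 0.13, adjusted p = 6.57e-05), a level below the near-empty droplets in every library. Their *nr3c1* was 51.2 ± 5.27 against 80.6 ± 8.30 CPM (-0.54 ± 0.14, adjusted p = 0.0134, and 0.0657 without library 2). Their higher *raraa* (0.43 ± 0.14, adjusted p = 0.0424) was lost without library 1, 2 or 3 (adjusted p = 0.102, 0.0696 and 0.0665).

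The other members varied less or were too rare. *nr2c2* ran from 103 ± 9.76 CPM in RGC-like to 159 ± 10.1 CPM in RPC-like nuclei, and *pparab* from 33.2 ± 5.72 CPM in RGC-like to 53.7 ± 19.4 CPM in HC-like nuclei, and neither was called in any class. Neighbouring classes overlapped throughout the order of both genes. The second estrogen receptor gene *esr2a*, with 222 UMIs, reached at most 4.50 ± 4.62 CPM. The liver receptor homolog gene *nr5a2* (413 UMIs), the bile acid receptor gene *nr1h4* (140 UMIs) and *nr0b1* (58 UMIs), an atypical receptor without the usual DNA-binding domain, peaked at 7.67, 2.84 and 1.38 CPM. No class exceeded the near-empty droplets in every library for *nr0b1*. *nr1h4* had 0 UMIs in RPC-like nuclei, and no fold change was computed there.

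The 3 rod-like and 2 PR precursor-like clusters were not uniform. Rod cluster A held 2390 nuclei (median 1830.5 UMIs), rod cluster B 814 nuclei (median 4375 UMIs) and rod cluster C 778 nuclei (median 1114 UMIs). Cluster C stood out by rhodopsin, at 105427, 74131 and 53927 CPM, against 17993, 17872 and 16298 CPM in cluster A. Most cluster C nuclei came from library 3 (543, against 113 from library 1 and 122 from library 2). In cluster C, 10 of the 19 members were lower than in cluster A in all 3 libraries and 12 were lower than in cluster B. The share of all features lower in cluster C was not computed, so these counts cannot be read as particular to the members. Both counts include *nr1h4*, at 0 CPM in cluster C and at most 5.31 CPM in clusters A and B, with 19 UMIs in all rod-like nuclei. *raraa* was at 107, 189 and 181 CPM in cluster C, against 732, 647 and 541 CPM in cluster A, and so below both precursor clusters. *esrrga* had 1278, 449.6 and 563 CPM in cluster C, against 1956, 1232 and 1247 CPM in cluster A. Cluster C lay below the near-empty droplets in libraries 2 and 3 for *esrrga* (462 and 569 CPM) and in libraries 1 and 3 for *raraa* (113 and 257 CPM). *nr2e1* was the only member higher in cluster C than in cluster A in every library, at 4.45, 5.55 and 5.67 CPM against 3.63, 4.86 and 2.54 CPM. All rod-like nuclei together held 34 UMIs of *nr2e1*, so this order rests on few molecules. Near-empty droplets held 8.13, 3.54 and 5.10 CPM of it. Without cluster C, rod-like nuclei showed the same 5 members higher and 4 lower than precursors.

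Precursor cluster A held 2368 nuclei and cluster B 1427 nuclei. *nr2c2*, *nr3c1*, *nr3c2*, *nr5a2* and *rorb* were lower in cluster A in all 3 libraries, and *esr2a* and *nr2e1* were lower in cluster B. For *rorb* this was 762, 747 and 582 CPM in cluster A and 835, 920.2 and 715 CPM in cluster B. All PR precursor-like nuclei together held 19 UMIs of *esr2a*, 45 of *nr5a2* and 53 of *nr2e1*, so the order of these genes rests on few molecules. Here too, the share over all features was not computed. A further cluster of 693 nuclei took no name, since its nearest list, that of the precursors, reached a mean log2 ratio of 0.976 and a ratio of 1 was required. Its *esrrga* level of 846, 895 and 863 CPM and its *raraa* level of 469, 550.0 and 455 CPM lay between precursor and rod clusters A and B in all libraries. Counted as PR precursor-like, this cluster lowered the number of members called higher in rods to 3, with *esr1* and *nr2c2* no longer called (adjusted p = 0.0851 and 0.0538), and *nr2e1* was no longer called lower (adjusted p = 0.0993).

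**Figure D4:**
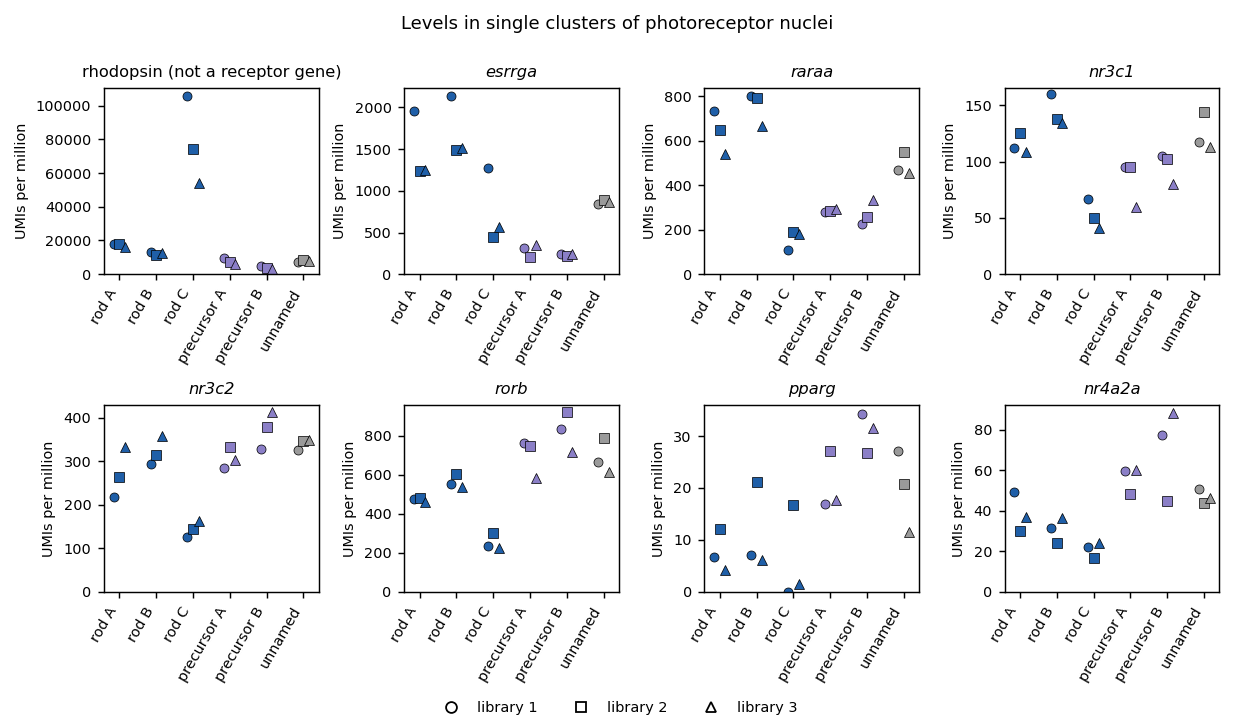
Level in CPM (y axis) of rhodopsin and 7 nuclear receptor genes in the 3 rod-like, the 2 PR precursor-like and the unnamed cluster nearest to them (x axis), with each point 1 library. Rod cluster C has the highest rhodopsin (53927 to 105427) and the lowest *raraa* (107 to 189), and the unnamed cluster lies between precursors and rods A and B for *esrrga* and *raraa*.

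Partners of these receptors were read from 6 lists of pathway genes in rod-like over PR precursor-like nuclei, in which members without a symbol in the annotation were missed. Of the coregulators that receptors recruit, 11 of 20 listed genes were tested, 2 were higher and none was lower, beside 15% higher and 15.1% lower over all features tested. These were the corepressor *nrip1a*, at 462, 729.9 and 424 CPM in rod-like nuclei against 431, 438 and 325 CPM in PR precursor-like nuclei (log2 fold change 0.65 ± 0.17, adjusted p = 0.0198), and the coactivator *ncoa2* (0.60 ± 0.16, adjusted p = 0.0176). The list's median was 0.27, against -0.03 over all features. Of the retinoid genes, 8 of 26 were tested and 3 were higher, with a median of 0.65. The share over all features was the same 15% higher and 15.1% lower for the retinoid, clock, immediate early, glucocorticoid and thyroid lists. *rdh8a*, a retinol dehydrogenase of outer segments, led with 192, 154 and 204 CPM in rod-like nuclei against 37.7, 51.8 and 55.2 CPM in PR precursor-like nuclei (2.19 ± 0.18, adjusted p = 3.78e-05). The retinoid carrier gene *rbp3* (1.88 ± 0.21, adjusted p = 0.00015) and the retinol transporter gene *stra6* (1.26 ± 0.32, adjusted p = 0.0141) followed. *stra6* was low in both classes, at 10.7, 11.0 and 13.0 CPM in rod-like nuclei against 3.90, 3.84 and 10.2 CPM in PR precursor-like nuclei. RPC-like nuclei held 29.2, 63.3 and 27.5 CPM of it. Between precursors and progenitors, *aldh1a3*, which makes retinoic acid and was picked after its values were seen, was at 5.47, 3.20 and 7.39 CPM in PR precursor-like nuclei, against 169.9, 134 and 49.0 CPM in RPC-like nuclei (-4.28 ± 0.44, adjusted p = 0.000106).

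Among the clock partners of *nr1d1* and the ROR genes, 4 of 24 were tested and 2 were higher in rods (15% of all features), the cryptochrome gene *cry1b* (1.14 ± 0.15, adjusted p = 0.000478) and *tefa* (0.74 ± 0.24, adjusted p = 0.0434). *tefa* was low, at 15.1, 14.4 and 14.4 CPM in rod-like nuclei against 11.5, 10.9 and 8.53 CPM in PR precursor-like nuclei. Of the immediate early genes, 6 of 22 were tested, with *dusp1* (1.098 ± 0.20) and *atf3* (1.06 ± 0.26) higher and *klf6a* (-2.003 ± 0.22) lower, at adjusted p-values of 0.000135 to 0.0124. In library 2 the levels of *atf3* were close, at 42.7 CPM in rod-like and 40.3 CPM in PR precursor-like nuclei. Of the glucocorticoid list, 4 of 14 were tested, and *dusp1*, which it shares with the immediate early genes, was higher and *zbtb16a* lower. *zbtb16a* was at 37.02, 111 and 44.7 CPM in rod-like nuclei and 80.2, 546 and 85.9 CPM in PR precursor-like nuclei (-1.24 ± 0.26, adjusted p = 0.00529), so library 2 was the highest in both classes. Of the thyroid hormone list, 3 of 10 were tested and the transporter gene *slc16a10* was higher (1.66 ± 0.27, adjusted p = 0.00145).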

How the data were processed

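Nuclear RNA from the retinas of 3 animals was sequenced by the authors with the 10x Chromium 3′ kit and aligned with STAR 2.7.10a (STARsolo) to build sScyCan1.1, counting introns. The authors deposited raw UMI counts of 29017 features for all barcodes, with totals of 73310348, 50691314 and 71366924 per library. Barcode and feature lists served as names.

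Filters followed the study: at least 200 features, features in at least 3 barcodes, under 10% mitochondrial UMIs, and limits of 1000 to 20000 UMIs and 500 to 5500 features in library 1, 500 to 24000 and 500 to 6500 in library 2, and 750 to 20000 and 300 to 7000 in library 3. This left 6053, 4425 and 10154 nuclei, with medians of 3400.0, 2194 and 2032 UMIs. Library pairs shared 1, 16 and 15 barcodes among these nuclei. Near-empty droplets were the lower part, by UMIs, of all barcodes that had 200 or more features in a library, up to their median. Barcodes with fewer features were left out. These droplets held a median of 390, 305 and 481 UMIs in libraries 1, 2 and 3, fewer than the nuclei. Their CPM therefore compare shares of UMIs and not amounts per droplet, and whether they hold only free RNA was not tested. Doublets were scored by artificial nearest neighbours at a rate of 4%, and 212, 153 and 367 were removed. Their median UMIs were below those of the kept nuclei in libraries 1 and 2. Nuclei were clustered with Seurat 5.3.0 (sctransform 0.4.2, cell cycle regression, reciprocal PCA on 2000 features, 30 components, resolution 0.5), with the 19 members left out of the clustering features. Of the clusters without a name, 3 with at least 80% of their nuclei from 1 library were set aside. Clusters were named by marker lists at a mean log2 ratio of at least 1 with at least 3 genes, with 10 CPM added. These classes were rebuilt and can differ from those of the study, and no oligodendrocyte cluster was named.

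UMIs of each class were added up within a library, and the sums were tested with edgeR 4.0.16 (TMM, filterByExpr, quasi-likelihood), with Benjamini-Hochberg adjustment over all features and calls at an adjusted p under 0.05. The SE of an edgeR fold change was not given by the fit. It was derived as the absolute log2 fold change divided by the square root of the quasi-likelihood F statistic. The library was a block, because both sums of a comparison come from the same animal, and each library stands for 1 animal. CPM are UMIs per 1e+06 UMIs of a class sum, without mitochondrial features. Since nuclei were grouped on the same counts, p-values of class comparisons are too small by an unknown amount. DESeq2 1.42.0 was an alternative. Members, marker lists and pathway lists were chosen with earlier results of these data known. Per-library values are given for members called between rods and precursors or highest in either class, and other members by their highest class. Of each pathway list, up to 3 called genes are named. Fewer cells with the RNA and less RNA per cell were not separated within a class sum. Sequences were not used here.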

Additional observations from a re-analysis of the deposited data

How the results depend on the processing

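Of 64 calls of a member in a comparison, none reversed in any alternative. Members called higher and lower in rods over precursors (5 and 4) were 3 and 6 without TMM factors, 3 and 2 with DESeq2 and 2 and 0 with no replicate block, and 3 were higher with the unnamed cluster counted as PR precursor-like. Without each library in turn they ranged from 4 to 5 higher and from 1 to 4 lower. In precursors over progenitors, the 1 higher member became 0 with DESeq2, 0 with no replicate block, 4 without the filter on low counts, 3 without doublet removal, 0 with members left among the clustering features, 2 with nuclei of at least 1500 UMIs only and 3 with the unnamed cluster counted as PR precursor-like, and ranged from 0 to 1 without each library in turn. In the lineage over other nuclei, the 3 lower members became 1 with no replicate block and 5 without the precursor cluster that held more of library 1. Member and class pairs called higher (21) and lower (25) were 9 and 10 with no replicate block, and ranged from 11 to 20 and from 19 to 21 without each library, the 11 without library 2. With no replicate block, 38 of the 64 calls were lost, and the causes of these changes were not tested. The block pairs sums from the same animal. The calls of *esrrga* and *raraa* in rods over precursors held with no replicate block. At resolution 0.3 no RPC-like class was named, so its comparison and the counts over all pairs were not run there. Counts of all features in rods over precursors were 969 higher and 787 lower with no replicate block, 1428 and 3503 without TMM factors and 1521 and 1465 with DESeq2, against 2116 and 2127. With no replicate block they were 260 and 551 in precursors over progenitors, against 685 and 1007, and 741 and 1739 in the lineage over other nuclei, against 2970 and 3567. Without the filter on low counts 1220 features were higher in precursors over progenitors. Without each library in turn, 434 to 588 were higher there and 1383 to 2647 in the lineage. The last 3 cluster choices (without rod cluster C, with the unnamed cluster added, without 1 precursor cluster) were chosen after seeing the data. Depth limits *nr0b1*, *nr1h4*, *esr2a* and *nr5a2*, for which differences between classes were mostly not detectable.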
